A study of Mus musculus with 6 samples.

Results

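CD4 T cells of the mouse pancreas were taken from 6 droplet single-cell RNA libraries as cell barcodes with a CD3 chain and Cd4 but no CD8 chain. A barcode was kept when it held at least 200 detected genes and at most 20% of its unique molecular identifiers (UMIs, each standing for 1 captured RNA molecule) from mitochondrial genes. It was called a CD4 T cell when it held at least 1 UMI of Cd3d, Cd3e or Cd3g, at least 1 UMI of Cd4, and 0 UMIs of Cd8a, Cd8b1 and of the B cell gene Cd79a. The cells were therefore chosen by these genes, whose levels are given as a description only. The rule found 173 CD4 T cells among 4929 kept barcodes, of 8582 deposited.

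All mice carried the R26[CA]30EYFP reporter on a C57Bl/6J background, and pancreatic cells were separated into EYFP negative and EYFP positive fractions. In this reporter a dinucleotide repeat holds the fluorescent protein out of frame until a replication slip brings it into frame, and the descendants of a labelled cell keep the label. Runs 1 and 2 were untreated mice in homeostasis, and run 3 was taken 9 days after cerulein, a secretagogue that causes pancreatitis when overdosed, given into the peritoneum at 50 ug/kg in 7 hourly injections a day on 2 days. Each run gave 1 EYFP negative and 1 EYFP positive library, so the 4 groups held 2 libraries each in homeostasis and 1 each in pancreatitis. Pancreatitis and run 3 cannot be told apart. The labels name no individual mice, and whether libraries were separate animals is not stated there. All p-values therefore reflect how these 6 libraries vary, which may be technical variation.

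CD4 T cells recognise peptides presented on MHC class II molecules and act mainly by helping other cells, through the CD40 ligand, cytokines and costimulatory receptors. CD8 T cells recognise peptides on MHC class I and carry cytotoxic granules. Among CD4 T cells, naive cells recirculate through lymph nodes with the chemokine receptor Ccr7, effector and memory cells lodge in tissues, regulatory cells carry the factor Foxp3, and follicular helper cells support antibody responses by B cells.

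The EYFP negative runs 1, 2 and 3 gave 17, 35 and 91 CD4 T cells, and the EYFP positive runs 18, 2 and 10. With the rule turned to CD8 (a CD3 chain, at least 1 UMI of Cd8a or Cd8b1, 0 of Cd4 and Cd79a), the same libraries gave 18, 55, 45, 5, 13 and 7 CD8 T cells, 143 in all. A further 234 CD3-positive barcodes held neither Cd4 nor a CD8 chain, and 7 held both.

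The markers bore the label out. Trbc2, a constant region of the T cell receptor beta chain that the rule did not use, had a UMI in 166 of the 173 cells (96.0%), in 90.9% of CD8 T cells and in 71.4% of the cells with neither coreceptor. Cd40lg, the CD40 ligand, was found in 34.7% of the CD4 T cells, in 0.699% of the CD8 T cells and in none of 887 B cells. Nkg7, a cytotoxic granule gene, was in 19.1% of the CD4 and 83.2% of the CD8 T cells. Natural killer cell markers were met in 2.89% of the CD4 T cells and gamma-delta receptor genes in 2.31%, against 24.8% and 31.6% of the CD3-positive cells with neither coreceptor. In the CD8 T cells, with which the CD4 T cells are compared below, these shares were 5.59% and 14.7%. Because the rule accepts 1 UMI, 85 cells sat just inside it with 1 Cd4 UMI and 88 had 2 or more. Trbc2 was found in 92.9% of the former and 98.9% of the latter, and Cd40lg in 29.4% and 39.8%. Another 2 members, both of EYFP negative run 2, had no UMI of Trbc1, Trbc2 or Trac.

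Depth per CD4 T cell was similar in the libraries, with medians of 5782 to 7719.5 UMIs, and 15439 to 617994 UMIs in the sum over a library's CD4 T cells. RNA of other cell types was not even. In EYFP negative run 3, haemoglobin made up 5.07% and digestive enzymes 3.63% of the CD4 T cells' UMIs, against at most 0.134% and 0.301% in the other libraries. Without the 5 cells of that library with over 10% of such UMIs the shares were 0.286% and 0.268%. Igkc, the kappa light chain of B cells, was at 505 and 510 CPM (counts per 1000000 UMIs in the sum over a library's cells of that type) in EYFP negative runs 1 and 2 and at most 64.8 elsewhere. Sex-linked RNA also differed by run. Xist without Y-linked RNA was seen in 12, 25 and 2 CD4 T cells of EYFP negative runs 1 to 3 and Y-linked RNA without Xist in 0, 3 and 65. In the EYFP positive runs these counts were 18, 1 and 0 against 0, 0 and 7. Cell barcodes were shared between the fractions of a run (23, 71 and 47 barcodes in runs 1, 2 and 3, at most 2 between any other libraries), and 5 CD4 T cells, among them both of EYFP positive run 2, had a barcode that another library also held.

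CD4 T cells were 3.88%, 1.98% and 6.21% of kept barcodes in EYFP negative runs 1, 2 and 3, and 2.16%, 1.07% and 4.202% in the EYFP positive runs. The exact 95% binomial intervals, which cover counting error only, ran from 5.03% to 7.57% in EYFP negative run 3 and from 1.39% to 2.75% in EYFP negative run 2. Run 2 had the lowest share in both fractions and the pancreatitis run the highest, but among CD3-positive cells EYFP positive run 1 was highest (47.4%, 8.33% and 38.5% in EYFP positive runs 1, 2 and 3). Over all deposited barcodes EYFP negative runs 1 and 3 were at 2.59% and 2.56%. In all 3 runs the EYFP positive library had the smaller share, by a mean of 1.55 percentage points (2.48% ± 1.59 against 4.02% ± 2.12, SD, n = 3 each), but the ranges overlapped and a two-sided exact permutation test over the libraries gave p = 0.5, where the smallest p the design allows is 0.1. The direction turned when the denominator was CD3-positive cells (2.12 points higher) or when cells with markers of another class were left out (1.79 points higher). The latter choice did not use the acinar, erythroid, B or plasma and innate lymphoid lists.

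Among CD4 plus CD8 T cells, the CD4 share was 48.6%, 38.9% and 66.9% in the EYFP negative runs and 78.3%, 13.3% and 58.8% in the EYFP positive runs. The EYFP positive libraries thus held both the highest and the lowest share, the latter from 2 of 15 cells with an interval of 1.66% to 40.5%. The fractions averaged 50.1% ± 33.3 and 51.5% ± 14.2 (SD, n = 3 each), which did not separate them (difference -1.32 points, p = 1, two-sided exact permutation test). Without EYFP positive run 2 the difference was 17.1 points in the opposite direction, and without EYFP negative run 3 it was 6.41 points.

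**Figure D1:**
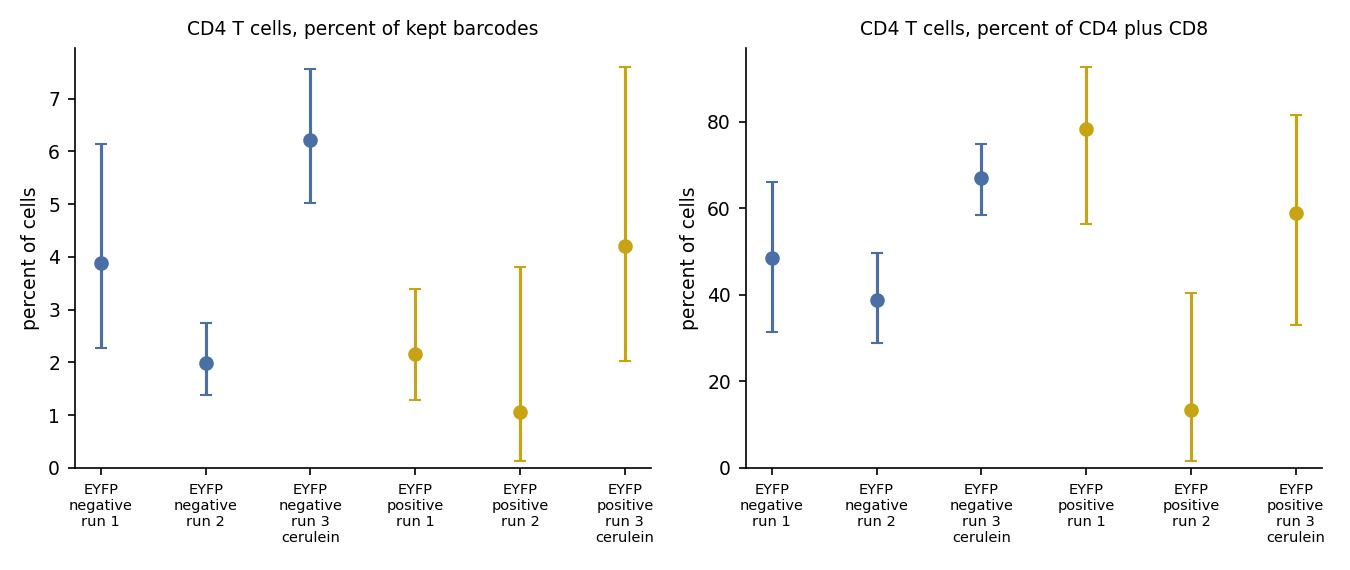
Share of CD4 T cells among kept barcodes (left) and among CD4 plus CD8 T cells (right), in percent of cells, in each of the 6 libraries. Points are libraries and bars exact 95% binomial intervals, blue for EYFP negative and yellow for EYFP positive; the intervals of the EYFP positive libraries are wide because they hold 18, 2 and 10 CD4 T cells.

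The CD4 T cells differed from the CD8 T cells of the same suspensions in helper and costimulatory genes on one side and in cytotoxic and natural killer receptor genes on the other. UMIs were summed per library and cell type and compared within the 3 EYFP negative libraries, which had at least 10 cells of both, with edgeR's quasi-likelihood test and library as a block. Adjusted p below is Benjamini-Hochberg over all genes tested, with a threshold of 0.05. Of 3297 genes tested, 5.34% passed, 2.7% higher and 2.64% lower in CD4 T cells (176 genes, 89 and 87). Without EYFP negative run 2 the count was 59, and DESeq2 called 25.

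Among the 6 tested genes of the CD4 lineage list, 5 rose, with a median log2 fold change of 2.92 over the 6, beside -0.00 over all genes tested. Cd40lg reached 52.2, 50.4 and 79.3 CPM in the CD4 T cells of EYFP negative runs 1, 2 and 3, against 0, 3.77 and 0 in the CD8 T cells, the latter from 1 UMI in all. The log2 fold change was 5.16 ± 0.80 (SE, adjusted p = 0.000849), and the ratio of the summed levels was 54.0, with an exact 95% counting interval of 9.35 to 2165. The EYFP positive CD4 T cells, which the test did not use, were at 154, 130 and 99.8, and their CD8 T cells at 0 in all 3 libraries. Tnfrsf4 (OX40), a costimulatory receptor of activated T cells, was at 69.6, 112 and 59.9 in CD4 and at 0, 0 and 5.23 in CD8 T cells (4.61 ± 0.69, adjusted p = 0.000665), a ratio of 27.4 (7.29 to 231) on 2 UMIs in CD8 T cells. Izumo1r, the folate receptor 4 of CD4 T cells, was at 252, 263 and 189 against 33.2, 15.1 and 10.5 (3.71 ± 0.32, adjusted p = 2.45e-06). In these 3 genes no CD8 value came near the lowest CD4 value, but they passed the test on the same libraries. Tnfsf8, the CD30 ligand, rose by 2.13 ± 0.39 on the log2 scale, but its CD4 levels of 69.6, 359 and 80.9 spread widely, the first from 8 UMIs in 1 cell. Gata3, a helper lineage factor, was at 1.10 ± 0.37 and did not pass (adjusted p = 0.109).

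The transcription factor Maf, which drives cytokine programmes of helper cells, was at 209, 319 and 273 CPM in CD4 T cells and at 0, 18.8 and 7.84 in CD8 T cells (4.62 ± 0.36, adjusted p = 1.02e-06). Tbc1d4, a regulator of glucose transporter traffic, had the highest fold change of the named genes, 5.20 ± 0.53, with 165, 275 and 104 against 0, 0 and 7.84, a ratio of 37.1 (12.4 to 182) on 3 UMIs in CD8 T cells. Rora, a nuclear receptor of helper and tissue lymphocytes, was at 78.3, 44.8 and 82.5 against 8.30, 7.53 and 5.23 (3.23 ± 0.54, adjusted p = 0.0016; 0.108 with DESeq2). The groups did not overlap in any of the 3, but these genes passed the test on the same libraries, so this is no separate result. P2rx7, a receptor for extracellular ATP with 2 UMIs in CD8 T cells, rose by 3.93 ± 0.86 (ratio 20.2, 5.31 to 172), Tmem64 by 3.46 ± 0.61 and Ckb, a creatine kinase, by 3.15 ± 0.67.

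On the regulatory T cell list 4 of the 7 tested genes rose and none fell. Ctla4, an inhibitory receptor, was at 174, 151 and 93.9 CPM in CD4 against 0, 7.53 and 10.5 in CD8 T cells (3.85 ± 0.46, adjusted p = 7.93e-05). Ikzf2 (Helios) was at 548, 275 and 377 against 74.7, 41.4 and 41.8 (2.87 ± 0.23, adjusted p = 1.04e-06). Capg rose by 2.34 ± 0.32 and the costimulator Icos by 1.87 ± 0.35, the latter without a call when EYFP negative run 3 was left out (adjusted p = 0.124) or with DESeq2 (0.497). Icos stands also on the follicular helper list, where Cd200 (3.18 ± 0.66) and Tox (1.19 ± 0.31) were the other genes that rose, 3 of 5 tested.

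Of the 16 tested genes of T cell receptor signalling and identity, 3 rose and 1 fell. Cd5, an inhibitor of receptor signalling, was at 261, 252 and 238 CPM in CD4 and at 83.0, 117 and 75.8 in CD8 T cells (1.37 ± 0.22, adjusted p = 0.00134; 0.135 with DESeq2). The costimulatory receptor Cd28 rose by 0.87 ± 0.23 and the alpha chain constant Trac by 0.58 ± 0.15, while Thy1 fell by 0.73 ± 0.18 on the log2 scale. Trbc2 itself stood at 0.05 ± 0.12 (adjusted p = 0.913).

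All 11 tested genes of the CD8 and cytotoxic list were lower in CD4 T cells, with a median log2 fold change of -2.82. Nkg7 was at 209, 106 and 123 CPM in CD4 T cells against 763, 908 and 1009 in CD8 T cells (-2.82 ± 0.22, adjusted p = 1.02e-06). Ctsw, a protease of cytotoxic lymphocytes, was at 78.3, 28.0 and 45.3 against 365, 301 and 233 (-2.62 ± 0.25). Runx3, the factor that sets the CD8 lineage and silences Cd4, was at 43.5, 16.8 and 68.0 against 323, 271 and 264 (-2.53 ± 0.28, adjusted p = 3.43e-05). Klrd1 (CD94; -3.85 ± 0.41) and Klrk1 (NKG2D; -3.05 ± 0.56), receptors shared with natural killer cells, fell too. The chemokine Ccl5 fell by 3.17 ± 0.69 but overlapped between the types in EYFP negative run 1, where 4 CD4 T cells held 180 of its UMIs. Its call was lost without EYFP negative run 2 (adjusted p = 0.137). Outside the lists, Jaml, an adhesion molecule of T cells at epithelia, was at 0, 0 and 3.24 against 99.55, 113 and 49.65 (-4.82 ± 0.66), 36.2-fold higher in CD8 T cells (9.59 to 305) on 2 UMIs in CD4 T cells. Ly6c2 (-3.72 ± 0.39), Plac8 (-4.15 ± 0.55) and the gut homing receptor Ccr9 (-3.85 ± 0.60) also fell.

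**Figure D2:**
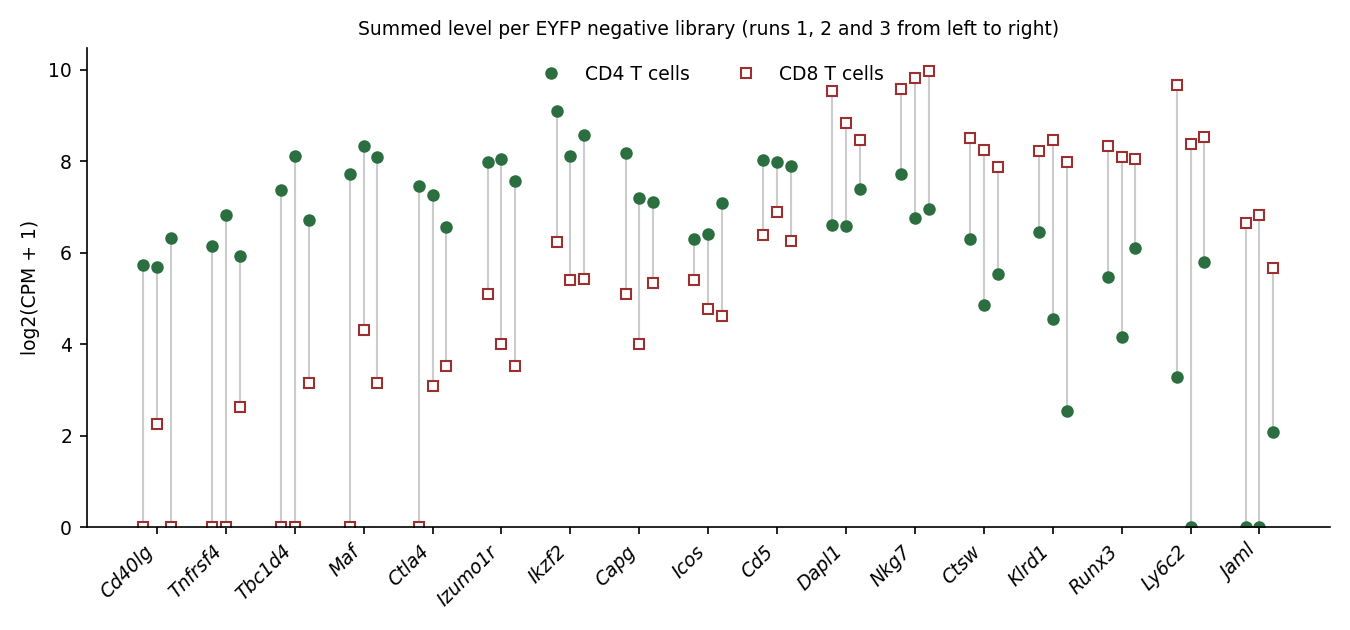
Summed level, as log2(CPM + 1), of 17 genes in CD4 T cells (green circles) and CD8 T cells (red squares) of EYFP negative runs 1, 2 and 3, joined within a library. In the 10 genes from Cd40lg to Cd5 every CD4 value lies above the CD8 value of its library, and in the 7 genes from Dapl1 to Jaml below it. The 17 genes were drawn from those that passed the test on these libraries, so their shared direction is no separate result.

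Among genes of naive and central memory cells, Lef1 (-0.23 ± 0.17), Tcf7 (0.19 ± 0.19), the interleukin 7 receptor Il7r (-0.02 ± 0.21) and Ccr7 (-0.40 ± 0.21) did not pass. On the effector memory and tissue residence list 5 of 17 rose, among them the beta1 integrin Itgb1 (1.09 ± 0.22), the calcium-binding S100a11 (1.03 ± 0.20) and S100a4 (1.23 ± 0.32). S100a4 did not pass without EYFP negative run 1 (adjusted p = 0.0825), and Itgb1 not without run 2 or run 3 (0.0813 and 0.122).

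Of the immediate-early and dissociation list 3 of 18 rose, Dusp1 by 1.57 ± 0.29, the inducible chaperone Hspa1a by 1.14 ± 0.21 and Junb by 0.90 ± 0.20. Interferon response genes rose in 3 of 11, among them Ly6a (Sca-1) by 1.93 ± 0.27 and Ifi27l2a by 0.99 ± 0.18. Cytosolic ribosomal protein genes were lower in 14 of 24, by small amounts, such as Rpl32 at 4343, 5508 and 4445 CPM against 5533, 7079 and 6123 (-0.48 ± 0.06, adjusted p = 0.000239), with all 24 estimates below 0. Enzyme genes of acinar cells were higher in 8 of 14. Reg1, at 1803 in the CD4 against 355 in the CD8 T cells of EYFP negative run 3 and at 17.4 to 50.4 against 16.6 to 22.6 in the other runs, was such a gene. The part of such RNA in the other genes was not tested beyond leaving those barcodes out, after which 197 genes passed (89 higher, 108 lower), 160 of them among the 176.

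Foxp3, the factor that defines regulatory T cells, had a UMI in 15 CD4 T cells, 4 of 17, 1 of 35 and 9 of 91 in EYFP negative runs 1, 2 and 3 and 1 of 18, 0 of 2 and 0 of 10 in the EYFP positive runs. The shares in the EYFP negative runs were 23.5%, 2.86% and 9.89%, with exact intervals of 6.81% to 49.9%, 0.0723% to 14.9% and 4.62% to 17.9%. In EYFP positive run 1 the share was 5.56%, and the 0 of 10 in EYFP positive run 3 allows up to 30% of cells with a UMI, which does not limit the share expressing the gene. Thinned to 1000 UMIs per cell, the shares of the 3 EYFP negative runs were 12.5%, 0.557% and 3.17%. Background was low, with 0 of 143 CD8 T cells and 0 of 887 B cells with a Foxp3 UMI, which allow up to 2.098% and 0.338%, while 14 of the 234 CD3-positive cells with neither coreceptor (5.98%) had one. Over the 5 libraries with at least 10 CD4 T cells the EYFP positive mean was 9.31 points lower (2.78% ± 3.93, n = 2, against 12.1% ± 10.5, n = 3), and a two-sided exact permutation test gave p = 0.4, with 0.1 the smallest possible. Within runs 1 and 3 the mean difference was -13.9 points.

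The Foxp3-positive cells carried more RNA of other regulatory genes, Ikzf2, Ctla4 and Il2ra among them. In EYFP negative run 3, the only library with at least 5 cells in both arms, the 9 Foxp3-positive and 82 Foxp3-negative cells gave sums of 68030 and 549964 UMIs, with exact 95% Poisson intervals for counting error. Ikzf2 was at 1220 CPM (972 to 1512) in the former and 273 (231 to 320) in the latter. Ctla4 was at 441 (298 to 630) and 50.9 (33.8 to 73.6). Il2ra, the high-affinity interleukin 2 receptor chain, was at 147 (70.5 to 270.3) and 20.001 (9.98 to 35.8). Of the Foxp3-positive sums, 20 Ctla4 UMIs were in 1 of the 9 cells and 5 Il2ra UMIs in another, a spread the intervals do not cover. Tcf7, a factor of naive and memory T cells, went the other way with 14.7 (0.372 to 81.9) and 347 (299.8 to 400.2), and Lef1 with 44.1 (9.09 to 129) and 327 (281 to 379). Cd40lg had 0 UMIs in the Foxp3-positive cells, an upper bound of 54.2, and 89.1 CPM in the Foxp3-negative cells. Of the 68030 UMIs of the Foxp3-positive cells, 31346 came from 1 cell with 1 Foxp3 UMI. The low levels and bounds of that arm rest in large part on this cell, and the Cd40lg values do not show an absence.

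With libraries of at least 3 cells in each arm, a test over EYFP negative runs 1 and 3 was possible, with 1 residual degree of freedom. In it 0.922% of 976 genes passed, 0.717% higher and 0.205% lower (9 genes, 7 and 2). Ikzf2 rose by 2.90 ± 0.26 (adjusted p = 0.00246), Ctla4 by 3.64 ± 0.50 and Il2ra by 3.96 ± 0.62 (adjusted p = 0.0139 and 0.0232). Capg (3.06 ± 0.39), S100a4 (2.51 ± 0.35), Tnfrsf4 (2.67 ± 0.43) and AW112010 (1.80 ± 0.29) were the other genes that rose. With DESeq2, Ikzf2, S100a4 and AW112010 passed, and Ctla4, Il2ra, Capg and Tnfrsf4 had no adjusted p. The 2 that fell were Hba-a1 and the gene model Gm12840, and haemoglobin RNA was uneven in these libraries. Tcf7 (-2.72 ± 0.58, adjusted p = 0.0981) and Lef1 (-2.64 ± 0.54, adjusted p = 0.0844) did not pass. The Foxp3-positive cells of all libraries had a median of 5160 UMIs and the negative cells 6346.5.

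**Figure D3:**
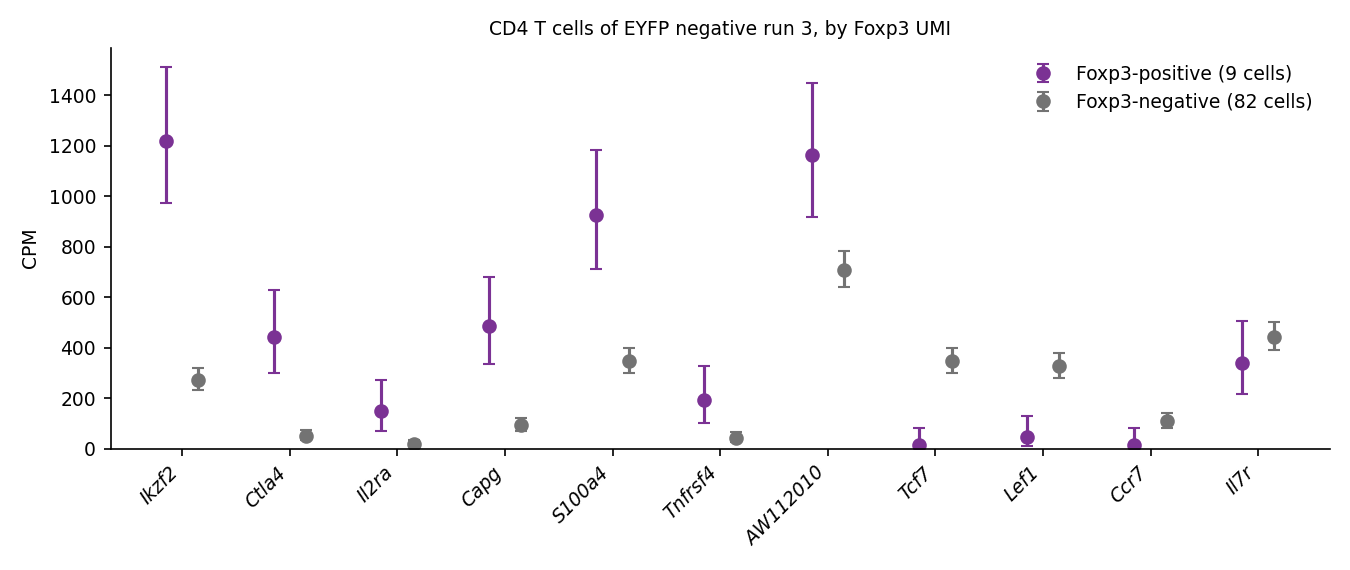
CPM of 11 genes in the 9 Foxp3-positive (purple) and 82 Foxp3-negative (grey) CD4 T cells of EYFP negative run 3, with exact 95% Poisson intervals of the counts. The intervals are apart for the 7 genes on the left and for Tcf7, Lef1 and Ccr7, and overlap for Il7r. The 7 genes on the left are those that rose in the test over EYFP negative runs 1 and 3. That test used these cells, so the separation of the 7 genes is no separate result. The intervals cover counting error only, and 1 Foxp3-positive cell held 31346 UMIs.

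Cytokines of the helper lineages were sparse. Of the type 1 genes, Ifng had a UMI in 28 of the 173 cells, the type 1 factor Tbx21 in 19 and the chemokine receptor Cxcr3 in 59. Of the type 2 genes, Il4 was found in 2 cells, Il13 in 1 and Il5 in 0, while Gata3 was in 60. Il17a and Il22 were found in 1 cell each and Il17f in 0. Il10 was found in 1 cell. A cell without a UMI cannot be called negative at this depth.

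S100a4, a gene of effector and memory cells, had a UMI in 4 of 17, 6 of 35 and 27 of 91 CD4 T cells of EYFP negative runs 1, 2 and 3 and in 10 of 18, 1 of 2 and 6 of 10 of the EYFP positive runs, 54 in all. The shares were 17.1% to 29.7% in the EYFP negative and 50% to 60% in the EYFP positive libraries. In the gene test below, however, S100a4 (0.97 ± 0.29, adjusted p = 0.204) did not pass between the EYFP fractions.

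Genes of the follicular helper list were concentrated in a minority of cells. Of the 10 genes of that list (Cxcr5, Bcl6, Pdcd1, Icos, Il21, Sh2d1a, Tox, Tox2, Slamf6 and Cd200), the median CD4 T cell held UMIs of 2, and 38 of 173 cells (22.0%) held at least 4, a count chosen after the values were seen (58 held at least 3 and 22 at least 5). The count rested mainly on Tox, in 35 of the 38 cells, Slamf6 in 31, Icos in 28 and Sh2d1a in 25, while the defining receptor Cxcr5 was in 10 and the factor Bcl6 in 7. Foxp3 was in 6 of the 38, among them 3 of 5 in EYFP negative run 1, so these cells are named by the list only. The count of 4 was reached by 5 of 143 CD8 T cells (3.497%) and 3 of 234 CD3-positive cells with neither coreceptor (1.28%). Depth differed between these cells and the rest, with medians of 7023 and 6201 UMIs. By library, 5 of 17, 7 of 35 and 14 of 91 cells reached it in EYFP negative runs 1, 2 and 3, and 9 of 18, 1 of 2 and 2 of 10 in the EYFP positive runs.

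Genes outside the list were unevenly spread between these 38 cells and the other 135, all of them named after their values were seen. Maf had a UMI in 30 of the 38 and in 40 of the 135, and Tbc1d4 in 28 and 34. Lag3, an inhibitory receptor that binds MHC class II, was in 19 and 5, and Gpm6b, a membrane proteolipid, in 19 and 3. Sostdc1, a secreted antagonist of BMP and Wnt signals, was in 11 and 1. These counts pool the libraries. EYFP positive run 1 gave 9 of the 38 cells, with Maf, Tbc1d4 and Gpm6b in all 9 and Sostdc1 in 5. In EYFP positive run 3 the direction turned, with Maf in 0 of 2 against 4 of 8 cells and Tbc1d4 in 0 of 2 against 1 of 8. Lag3 was uneven between libraries within the 38 cells. Of the cells with at least 4 list genes, Lag3 was in 3 of 5, 6 of 7 and 9 of 9 in EYFP negative run 1, EYFP negative run 2 and EYFP positive run 1, in the 1 such cell of EYFP positive run 2 it was at 0, and in pancreatitis it was in 1 of 14 in EYFP negative run 3 and 0 of 2 in EYFP positive run 3.

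EYFP positive run 1 stood apart in its T cell receptor genes, which were looked at after its values were seen. The T cell receptor beta chain uses 1 of 2 constant regions, Trbc1 or Trbc2, chosen when the locus rearranges. Of the Trbc1 and Trbc2 UMIs together, Trbc1 made up 43.7%, 30.8% and 36.5% in the CD4 T cells of EYFP negative runs 1, 2 and 3 and 50.7% and 44.4% in EYFP positive runs 2 and 3. In EYFP positive run 1 it made up 1.41%, from 4 UMIs in 1 of 18 cells, against 280 Trbc2 UMIs in all 18. The 5 CD8 T cells of the same library had 10 Trbc1 and 28 Trbc2 UMIs. Trbc1 and Trbc2 are near-identical copies, so reads can be split between them, and the part of this was not tested. More Trbc1 than Trbc2 UMIs were held by 45 of the 155 CD4 T cells of the other libraries and by 0 of these 18.

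An alpha chain variable segment was also shared in that library. Trav19 had a UMI in 7 of its 18 CD4 T cells (9 UMIs), in 0 of the 155 CD4 T cells of the other libraries and in 0 of 143 CD8 T cells, counts of 0 that allow up to 1.94% and 2.098%. Other segments there were in at most 3 cells each. Of the 7 cells with Trav19, 6 were among the 9 with at least 4 follicular helper genes. Those 9 cells were deeper, with a median of 9593 UMIs against 5160 in the library's other CD4 T cells. The part of depth in this overlap was not tested. Receptor segments were sparsely covered, with any alpha variable segment in 60 and any beta variable segment in 39 of the 173 cells, and no receptor sequence was assembled. Il21, a cytokine of follicular helper cells, had 41 UMIs in 9 of that library's cells (252 CPM) and 15 in 7 cells of the others, with 4 of them in 1 of the 2 cells of EYFP positive run 2 (259 CPM). Gpm6b was at 473 CPM in EYFP positive run 1, at 43.5, 72.8 and 9.71 in the EYFP negative runs and at 259 and 0 in EYFP positive runs 2 and 3.

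**Figure D4:**
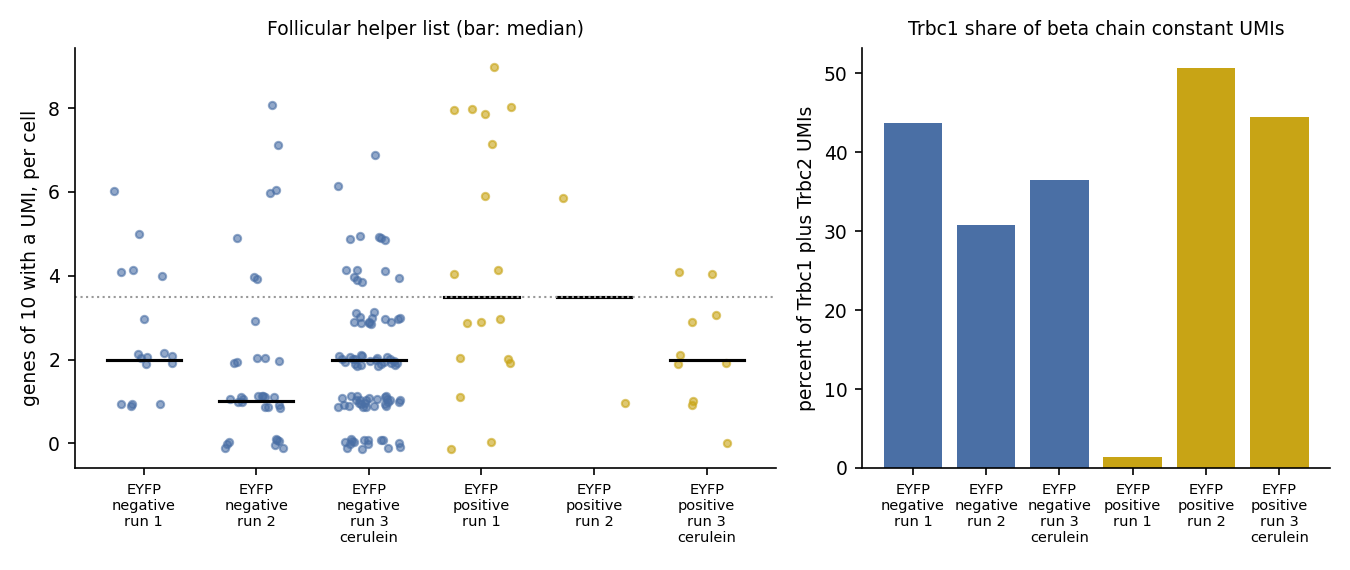
Left, number of the 10 follicular helper genes with a UMI in each CD4 T cell by library (points, jittered; black bar, median; dotted line, between 3 and 4 genes). Right, Trbc1 UMIs in percent of Trbc1 plus Trbc2 UMIs over the CD4 T cells of each library, with EYFP positive run 1 at 1.41% and the others between 30.8% and 50.7%.

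Between the EYFP fractions, the genes that passed included 3 of 9 tested cell cycle genes on the higher side and 9 acinar and erythroid genes on the lower side. The test used the 5 libraries with at least 10 CD4 T cells, 2 EYFP positive and 3 EYFP negative, with condition as a covariate, and left out EYFP positive run 2. Of 2696 genes tested, 0.816% passed, 0.408% in each direction (11 and 11). DESeq2 called 13. The count rests on single libraries, being 0 without EYFP negative run 2 (with 242 genes at an unadjusted p under 0.05), and 101, 137 and 119 without EYFP negative run 1, EYFP negative run 3 and EYFP positive run 3. Without EYFP positive run 1 it was 29, of which 27 were lower, and without the cells whose barcodes 2 libraries held it was 6, with neither Pclaf (adjusted p = 0.067) nor Top2a (0.23) among them.

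Of 9 tested cell cycle genes, 3 rose and all 9 estimates were positive. The RNA came from few cells. Stmn1, which destabilises microtubules in dividing cells, was at 676 and 211 CPM in EYFP positive runs 1 and 3 against 43.5, 33.6 and 32.4 in the EYFP negative runs (3.27 ± 0.35, adjusted p = 0.00297), with 110 UMIs in 5 cells and 19 in 2 cells. Top2a, the topoisomerase of dividing cells, had 50 UMIs in 5 cells and 22 in 2 cells (4.47 ± 0.51, adjusted p = 0.00353). Pclaf, a partner of the replication clamp, is not on the list. It had 75 UMIs in 2 cells and 6 in 1, against 1 UMI in the EYFP negative libraries (6.67 ± 0.65, adjusted p = 0.00297). The ratio was 292, with a counting interval of 50.9 to 11665. Over the cell cycle list, 925 of the 1126 UMIs of EYFP positive run 1 were in 2 cells, and 164 of 219 in EYFP positive run 3. Without EYFP positive run 1 neither Stmn1 (adjusted p = 0.129) nor Top2a (0.332) passed.

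Genes that rose across more cells were fewer. Bhlhe40, a factor of cytokine-producing effector cells, was at 332 and 188 CPM in EYFP positive runs 1 and 3, in 10 and 5 cells. In the EYFP negative runs it was at 26.1, 33.6 and 50.2 (2.43 ± 0.39, adjusted p = 0.0202). Itgb1 was at 792 and 1053 against 183, 235 and 392 (1.47 ± 0.28, adjusted p = 0.0489), and was 777 in EYFP positive run 2, which the test left out. Without EYFP positive run 1 Bhlhe40 (adjusted p = 0.599) and Itgb1 (0.702) did not pass, and without EYFP negative run 2 Bhlhe40 was at 0.186. On the effector memory list 2 of 18 rose, with a median log2 fold change of 0.70, and on the naive list 0 of 13 passed, with a median of -1.03, beside -0.01 over all genes. Regulatory, helper, interferon and MHC class I genes gave 0 calls.

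On the lower side Igkc fell by 4.57 ± 0.48 on the log2 scale (adjusted p = 0.00297), together with 4 of 4 erythroid genes and 5 of 13 acinar genes, whose RNA was high in the EYFP negative libraries of run 2 or run 3 as given above. Without the barcodes with over 10% haemoglobin and enzyme UMIs, 8 genes passed, 7 of them higher.

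After cerulein, CD4 T cells held more RNA of 4 immediate-early and dissociation genes, Fos, Jun, Klf6 and Dnajb1, and less of Lag3, Tox and Gpm6b. EYFP negative and EYFP positive run 3 were compared with the 3 homeostasis libraries of at least 10 CD4 T cells, with EYFP as a covariate. Of 2696 genes, 1.22% passed, 0.964% higher and 0.26% lower (33 genes, 26 and 7). Most of the higher genes were haemoglobins and enzymes, with 4 of 4 erythroid and 10 of 13 acinar genes. Leaving out the barcodes rich in them left 10 genes (6 and 4), all 10 among the 33. The count was 10 without EYFP negative run 2, 87, 83 and 81 without EYFP negative run 1, EYFP negative run 3 and EYFP positive run 3, and 18 with DESeq2.

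Of 18 tested immediate-early and dissociation genes, 4 rose and 17 estimates were positive, with a median of 1.10 beside 0.00 over all genes. The AP-1 factor Fos was at 60.9, 140 and 209 CPM in the homeostasis CD4 T cells of EYFP negative runs 1 and 2 and EYFP positive run 1, and at 773 and 1242 in the pancreatitis libraries, EYFP negative and positive (2.85 ± 0.34, adjusted p = 0.00501). Jun, its partner, was at 113, 303 and 184 against 1015 and 832 (2.31 ± 0.38, adjusted p = 0.0197). Klf6 was at 174, 89.7 and 203 against 568 and 721 (2.13 ± 0.30, adjusted p = 0.00842). Dnajb1, a cochaperone of the 70 kDa heat shock proteins, was at 34.8, 72.8 and 55.3 against 267 and 543 (2.74 ± 0.37, adjusted p = 0.00842). In the libraries tested none of these 4 genes overlapped between the conditions, but they are named because they passed on the same libraries. The pancreatitis levels came from 71, 68, 79 and 57 of the 91 cells of EYFP negative run 3. EYFP positive run 2, whose 2 cells entered no test, was at 583 for Fos and 389 for Dnajb1, inside or near the pancreatitis levels, and at 0 for Jun and 130 for Klf6.

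Per cell, UMIs of the list had medians of 28.1 and 53.1 per 10000 UMIs in EYFP negative runs 1 and 2 and 107.7 in run 3, and of 68.6, 74.6 and 185.7 in the EYFP positive runs. In CD8 T cells the medians were 24.2, 35.8 and 63.6 and of 22.9, 117.3 and 129.3. The list holds genes that tissue dissociation also induces. Its part in the result was not tested.

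**Figure D5:**
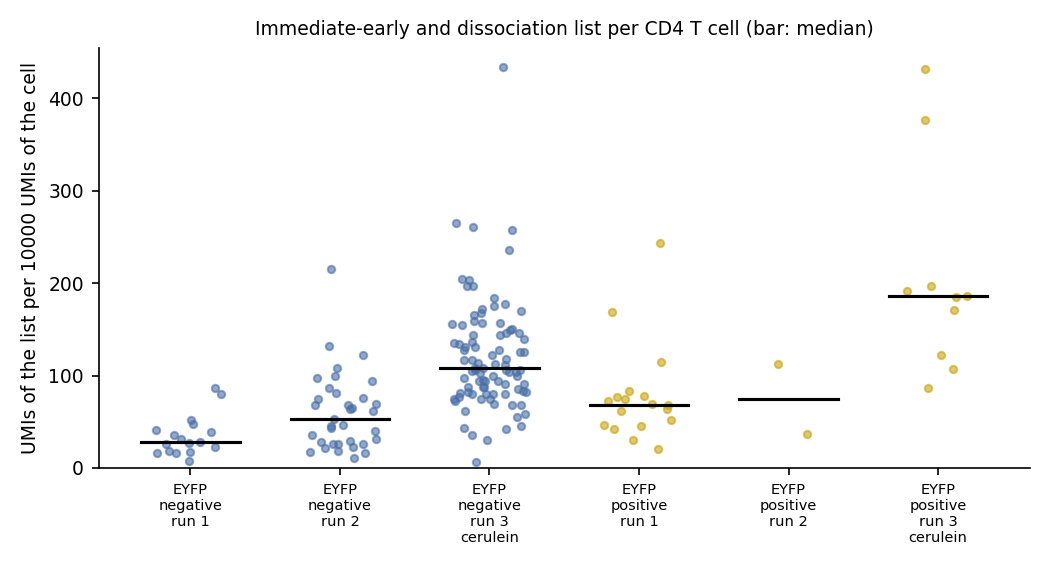
UMIs of the immediate-early and dissociation list per 10000 UMIs in each CD4 T cell by library (points, jittered; black bar, median). The medians are highest in the libraries taken after cerulein, at 107.7 and 185.7, and between 28.1 and 74.6 in the others.

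The inducible chaperone Hspa1a, and Hspa1b, which was added after its values were seen, were uneven in homeostasis and did not pass. Hspa1a was at 8.70, 230 and 6.14 CPM in homeostasis and 1328 and 2838 in pancreatitis (4.76 ± 0.97, adjusted p = 0.0505), and Hspa1b at 0, 258 and 12.3 against 786 and 2373 (4.01 ± 1.07, adjusted p = 0.164). They are near-identical neighbouring genes on chromosome 17, so their counts may be split between them. Promoters of the immediate-early and heat shock genes named here were read from RefSeq (GRCm38.p6, 250 bases upstream of the start) for 2 perfect motifs, the heat shock element GAANNTTC (6.78% of 27025 promoters) and the cyclic AMP element TGACGTCA (1.62%), both palindromic and so read once for both strands. Jun, Hspa1a and Hspa1b held 1 heat shock match each, at -128 in Jun and -104 in both chaperones, counted in bases from the start. Fos, Dnajb1, Dnajb4, Klf6 and Ifngr1 held no match of either, with more than 1 promoter read for Dnajb1 and Dnajb4. The opposite order of the heat shock letters, TTC before GAA, was not searched for, and a Dnajb4 promoter holds ttctagaa. No match is therefore not an absence of the element. The AP-1 letters TGAGTCA, read on both strands, were in none of these promoters and in 4.43% of all. Jun and Hspa1a are shown as the genes with a match, the match in capitals, 5′ to 3′ on the gene's strand.
Jun (chr4:95052223-95052472, minus strand): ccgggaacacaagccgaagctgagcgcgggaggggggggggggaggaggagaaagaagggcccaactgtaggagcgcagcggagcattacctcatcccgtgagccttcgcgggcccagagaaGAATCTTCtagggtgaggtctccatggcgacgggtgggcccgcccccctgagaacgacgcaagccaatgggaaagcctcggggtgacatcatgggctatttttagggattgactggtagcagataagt
Hspa1a (chr17:34972157-34972406, minus strand): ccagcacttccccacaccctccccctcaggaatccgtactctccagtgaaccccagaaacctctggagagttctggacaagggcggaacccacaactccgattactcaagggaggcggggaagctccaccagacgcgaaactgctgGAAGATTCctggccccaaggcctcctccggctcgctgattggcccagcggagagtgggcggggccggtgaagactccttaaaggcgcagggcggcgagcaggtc
A match is a description of the letters and not a bound site.

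Of the other activation genes, Cd69, which holds lymphocytes in tissue, was at 69.6, 61.6 and 215 CPM in homeostasis and 404 and 432 in pancreatitis (2.02 ± 0.35, adjusted p = 0.0227), and was the only 1 of 18 effector memory genes that rose. It did not pass without EYFP negative run 2 (adjusted p = 0.176) or run 3 (0.237). Ifngr1, the interferon gamma receptor, rose by 1.69 ± 0.34 (adjusted p = 0.0487), on the threshold, and the cochaperone Dnajb4 by 3.34 ± 0.60, from 17.4, 16.8 and 0 to 120 and 88.7 (adjusted p = 0.0268). Without the barcodes rich in haemoglobin and enzymes Cd69 (adjusted p = 0.0702), Ifngr1 (0.104) and Dnajb4 (0.0739) did not pass, and with DESeq2 neither Ifngr1 (0.672) nor Dnajb4 (0.0897) did. Interferon response, NF-kB and MHC class I genes gave 0 calls, as did the receptor signalling, naive, regulatory and cell cycle lists.

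Lag3 was at 131, 72.8 and 295 CPM in the homeostasis CD4 T cells of EYFP negative runs 1 and 2 and EYFP positive run 1, and at 6.47 and 0 in pancreatitis, where 1 cell of 101 held it (-4.28 ± 0.61, adjusted p = 0.00892). The 2 cells of EYFP positive run 2, a homeostasis library that entered no test, were at 0. Without EYFP positive run 1 Lag3 stood at -3.72 and did not pass (adjusted p = 0.234). Tox, a factor of follicular helper and chronically stimulated T cells, was at 191, 224 and 448 against 63.1 and 77.6 (-1.87 ± 0.31, adjusted p = 0.0197). Gpm6b fell by 3.61 ± 0.66 and Ptms by 1.87 ± 0.38 (adjusted p = 0.0286 and 0.048). Without EYFP positive run 1, Tox (-1.63, adjusted p = 0.0806), Ptms (-1.43, 0.234) and Gpm6b (-2.47, 0.9995) kept their direction and did not pass, nor did Tox (0.135) and Ptms (0.117) without EYFP negative run 2. Without the barcodes rich in haemoglobin and enzymes Gpm6b (adjusted p = 0.0869) and Ptms (0.104) did not pass. Ptprb, a phosphatase of endothelial cells, was at 34.8, 151 and 104 against 1.62 and 0 (1 UMI), 74.5-fold higher in homeostasis (12.8 to 3004), and did not pass without EYFP positive run 1 (adjusted p = 0.142) or without the haemoglobin and enzyme barcodes (0.0795). The sex-linked Xist fell by 5.50 ± 0.53 and Ddx3y rose by 5.23 ± 0.84, a ratio of 43.2 (7.49 to 1730) on 1 UMI in homeostasis, with the uneven sex-linked RNA given above, and Igkc fell by 5.33 ± 0.44. The part of sex in the other genes cannot be told apart from that of run 3 and cerulein.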

How the data were processed

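The authors deposited 6 matrices of unnormalized UMI counts, 31053 mouse genes by cell barcode. The submitters' processing notes name Cell Ranger 2.1.0 and GRCh38, and the file headers a software version of 3.1.0. No source used here names the mouse build, and 0 rows held EYFP.

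The cells, the 19 gene lists, the 13 lists of other cell classes and the tests were chosen with earlier results of these data known. Counts were summed per library over CD4 or CD8 T cells, where a library held at least 10, and scaled to 1000000 UMIs. Tests used edgeR 4.0.16 (TMM, filterByExpr, quasi-likelihood, Benjamini-Hochberg adjusted p under 0.05) in R 4.3.3. Shares were compared with exact permutation tests over libraries (scipy 1.17.1). Foxp3 arms had 1 library with at least 5 cells each, so a minimum of 3 cells was used for the test. Scrublet (scanpy 1.11.5) called 1 of the 173 cells a doublet, which was kept. Intervals (exact binomial or Poisson, 95%) and limits (3 counts) cover counting error only. The fits were checked on simulated data.

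Genes named by rule were, per comparison, up to 12 per direction with the largest change among those past the threshold, with an average log2 CPM not under 5 and the same direction throughout the libraries, or the 5 of lowest p where fewer passed, and in each list up to 6 genes of lowest p. Genes chosen after their values were seen are so marked. Alternatives were other scaling or filters, DESeq2 1.42.0, other cell filters, and leaving out each library. Leaving out barcodes with over 10% haemoglobin and enzyme UMIs, with 2 or more markers of another class, or shared between libraries was added after the data were seen. The choice by other-class markers set aside the CD8, acinar, erythroid, B or plasma and innate lymphoid lists. Cells with RNA of those classes therefore stayed in. A few genes of the lists are not reported here.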

Additional observations from a re-analysis of the deposited data

Results flagged for a closer look

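The difference between EYFP positive and negative CD4 T cells was itself different in pancreatitis and homeostasis for 26 of 3725 genes (11 larger, 15 smaller; edgeR's interaction term over 5 libraries, adjusted p under 0.05), a model with 1 residual degree of freedom in which 3 of 4 groups had 1 library. On the log2 scale, pancreatitis minus homeostasis, the term was 5.38 for Trbc1 (adjusted p = 7.55e-05), whose homeostasis EYFP positive library was EYFP positive run 1 with 4 Trbc1 UMIs. It was 5.46 for Hspa1a and 5.15 for Hspa1b (adjusted p = 0.0123 and 0.0105), -3.22 for Maf (0.0123), -4.33 for Tbc1d4 (0.0163) and -3.18 for Icos (0.0265). Il18r1 (3.38), Igfbp4 (3.02) and Nrp1 (-3.97) were flagged in the same way. Tmem176b (9.21) had 0 UMIs in EYFP positive run 1, so that its size depends on the prior count. Without barcodes with over 10% haemoglobin and enzyme UMIs the count was 21.

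The difference between CD4 and CD8 T cells differed between pancreatitis and homeostasis for 18 of 4275 genes (13 larger, 5 smaller, same test in the EYFP negative libraries, 1 residual degree of freedom), and for 8 without those barcodes. With libraries of at least 5 cells of each type it was 0 of 2834, with 74 at an unadjusted p under 0.05. The term was -1.86 for Ccl5 (adjusted p = 1.61e-08), -2.06 for S100a6 (7.04e-05), 2.40 for Cd69 (0.000659), 4.36 for Ly6c2 (0.00126), 6.08 for Xist (0.0195) and -5.05 for Ptprb (0.0476). Gzmb (10.40, adjusted p = 3.03e-05) rested on 22 UMIs in 1 CD4 T cell of EYFP negative run 3, with 0 in the homeostasis CD4 T cells, and its size depends on the prior count.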

How the results depend on the processing

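The share of CD4 T cells among kept barcodes, 1.55 points lower with EYFP, was 1.79 points higher without barcodes with markers of another class and 2.12 points higher among CD3-positive barcodes, and ran from -2.57 to -0.457 with 1 library left out. The share among CD4 plus CD8 T cells turned from -1.32 to 0.816 points with at least 2 Cd4 UMIs and to 4.26 without other-class markers, and ran from -15.4 to 17.1 (6.41 without EYFP negative run 3). The Foxp3-positive share ran from -13.9 to -3.60. Genes past the threshold between CD4 and CD8 T cells (176) were 25 with DESeq2, 290 without a low-count filter, 28 without the library block and 59 to 154 with 1 library left out. Between EYFP fractions (22) they were 13 with DESeq2, 135 without the filter, 5 with stricter cells, 79 without other-class markers, 8 without barcodes with over 10% haemoglobin and enzyme UMIs, 6 without shared barcodes and 0 to 137 with 1 library left out. In pancreatitis (33) they were 18, 107 and 16 under the first 3 of these, 10 without haemoglobin and enzyme barcodes, 76 in the EYFP negative libraries only and 10 to 87. Foxp3 arms (9) gave 5 with DESeq2, 18 with its size factors in edgeR and 77 without the filter. Lag3 between EYFP fractions turned from 1.16 to -3.85 without EYFP positive run 1 (1.44 without EYFP negative run 1). The cause was not tested. With run as a replicate block, 20 genes passed between EYFP fractions (12 of the 22, without Bhlhe40 at 0.103 and Itgb1 at 0.0978), and the shares gave p = 0.25, 1 and 0.5 (exact sign flips). Same-run libraries correlated at r = 0.158 and 0.300 and EYFP negative run 2 with EYFP positive run 1 at 0.1497, and with 2 EYFP positive libraries, whose deviations mirror each other, this does not show pairing. Leaving out every barcode with 2 or more markers of another class, with the acinar, erythroid, B or plasma and innate lymphoid lists included, left 0 cells. Leaving out a library left no test of the Foxp3 arms.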
